A study of Mus musculus with 20 samples.

Results

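Complex II, or succinate dehydrogenase, is the enzyme that the tricarboxylic acid (TCA) cycle and the respiratory chain share. It sits in the inner mitochondrial membrane, oxidizes succinate to fumarate, and passes the electrons through a flavin, a row of iron–sulfur clusters and a heme-bearing membrane anchor to ubiquinone. All of its subunits are encoded in the nucleus, and its dependence on iron–sulfur clusters and heme makes it one of the iron-using enzymes of the heart, a tissue rich in mitochondria. The 6 genes described here are its 4 subunits and 2 of its assembly factors, taken by name from the 23420 genes in the count table. *Sdha* encodes the flavoprotein that holds FAD and the succinate site. *Sdhb* encodes the iron–sulfur subunit. *Sdhc* and *Sdhd* encode the membrane anchors that bind heme and ubiquinone. *Sdhaf1* encodes a LYR-motif protein needed for iron–sulfur cluster insertion into SDHB, and *Sdhaf2* a factor that promotes attachment of FAD to SDHA.

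Messenger RNA was sequenced from whole hearts of 10 mice on a control diet and 10 mice on an iron-deficient diet, which were iron-deficient and anemic (IDA mice). All 20 were wild-type male mice aged 9 weeks, of strain C57BL/6 in the labels and C57BL/6J in the study's methods, and had received their diet for 6 weeks from the age of 3 weeks. The labels give the iron of the deficient diet as below 2 ppm in one field and above 2 ppm in another. The study's methods give a range that begins at 2 ppm, and name the control diet an iron-adjusted diet. The question of the comparison is how iron-deficiency anemia affects cardiac gene expression, here that of complex II. The study left out 1 mouse of each group for contamination without naming it, so all 20 mice were used.

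All 6 genes were among the 13590 that passed the filter of at least 1 CPM (read pairs relative to library size) in 10 or more mice. The filter used the library totals alone, and the CPM values of single genes given below include TMM scaling. Relative to the library total, the mRNAs of both assembly factors were higher in IDA hearts, *Sdhaf1* by 1.38-fold and *Sdhaf2* by 1.20-fold. Those of *Sdhb*, *Sdhc* and *Sdhd* were higher by 1.11-fold, 1.10-fold and 1.12-fold, and *Sdha* did not pass the test at 1.05-fold. In the quasi-likelihood test of edgeR, with 0.05 as the threshold for the adjusted p, 5 of the 6 genes were thus called higher and 0 lower, where 35.0% of all tested genes were called higher and 32.5% lower. All 6 fold changes were positive in edgeR and in DESeq2, where 52.0% of all tested genes had a positive value in edgeR. The shares among genes of like count density are given below. When edgeR and DESeq2 both had to give an unadjusted p below 0.01, 5 were again called higher, against 30.6% of all tested genes. The median log2 fold change over the 6 genes was 0.15, and that over all tested genes was 0.02. The calls for the 3 smaller subunits depended on the scaling to depth and on gene length, as given below with each gene, whereas those for *Sdhaf1* and *Sdhaf2* held under every setting tried. In whole-heart RNA, a change in the number of cells of a type and a change in RNA per cell cannot be told apart.

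**Figure D1:**
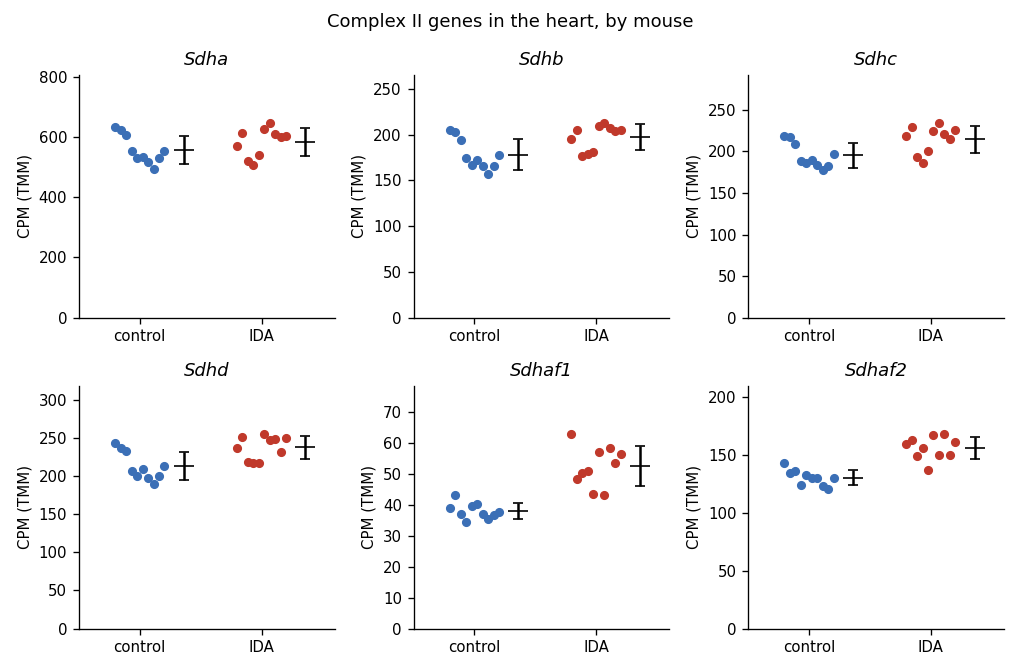
CPM of the 6 complex II genes in each mouse, with TMM scaling; points are mice (10 per group) and the marks beside them are the mean ± SD. The groups overlap for the 4 subunits and for *Sdhaf2*, whereas all 10 IDA mice lie above all control mice for *Sdhaf1*.

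*Sdha* lies on chromosome 13 of mm10 from 74322255 to 74350240 (minus strand) with 2859 exonic bases in 15 blocks. Its level ranged from 492 CPM to 631 CPM in control hearts with a median of 542, and from 506 CPM to 645 CPM in IDA hearts with a median of 601. Only 1 of the 10 IDA mice exceeded the highest control, so the groups overlapped nearly throughout. The means were 557 ± 47.5 CPM and 583 ± 47.0 CPM (SD, n = 10 each), and the log2 fold change of 0.07 (standard error 0.05) did not pass edgeR's test (adjusted p = 0.266).

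*Sdhb*, on chromosome 4 from 140961271 to 140979192 (plus strand, 1073 exonic bases in 8 blocks), ranged from 156 CPM to 204 CPM in control hearts with a median of 173, and from 177 CPM to 212 CPM in IDA hearts with a median of 204. The groups overlapped, with 5 IDA mice above the highest control and 9 above the control mean. The means were 178 ± 16.7 CPM and 197 ± 13.8 CPM (SD, n = 10 each), a log2 fold change of 0.15 (standard error 0.05, edgeR adjusted p = 0.0146).

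The membrane anchors differed by about as much as *Sdhb*. *Sdhc* (chromosome 1 from 171129157 to 171150603, minus strand, 1179 exonic bases in 6 blocks) ranged from 178 CPM to 219 CPM in control hearts with a median of 189, and from 186 CPM to 233.7 CPM in IDA hearts with a median of 220. Its log2 fold change was 0.14 (standard error 0.05, edgeR adjusted p = 0.0150), and 5 IDA mice exceeded all controls. *Sdhd* (chromosome 9 from 50596340 to 50603849, minus strand, 1285 exonic bases in 4 blocks) ranged from 189 CPM to 242.9 CPM in control hearts with a median of 208, and from 217 CPM to 254.9 CPM in IDA hearts with a median of 242.6. All 10 IDA mice were above its control mean and 5 above the highest control. The log2 fold change was 0.16 (standard error 0.05, edgeR adjusted p = 0.00614).

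*Sdhaf1* had the largest log2 fold change of the 6 genes. It lies on chromosome 7 from 30321409 to 30322375 (minus strand) as a single exon of 967 bases. Its level ranged from 34.5 CPM to 43.29 CPM in control hearts with a median of 37.4, and from 43.32 CPM to 62.9 CPM in IDA hearts with a median of 52.3. The groups did not overlap, although the highest control and the lowest IDA mouse were nearly level. Such a separation upward was found for 1 of the 6 genes and for 4.97% of all tested genes. The means were 38.0 ± 2.53 CPM and 52.5 ± 6.39 CPM (SD, n = 10 each), and the log2 fold change was 0.46 (standard error 0.06, edgeR adjusted p = 1.78e-06). In the GENCODE M21 annotation of the same build, 636 of these 967 bases are also exonic in *E130208F15Rik*, a gene on the opposite strand that is not a row of the count table. Counting was without strand, so reads of both genes over these bases cannot be told apart.

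*Sdhaf2*, on chromosome 19 from 10500512 to 10525209 (minus strand, 3097 exonic bases in 4 blocks), ranged from 120.2 CPM to 143 CPM in control hearts with a median of 130.0, and from 137 CPM to 168 CPM in IDA hearts with a median of 158. Here 9 of 10 IDA mice lay above all controls, and IDA mouse 5 was the exception. The means were 130.2 ± 6.66 CPM and 156 ± 9.68 CPM (SD, n = 10 each), and the log2 fold change was 0.26 (standard error 0.04, edgeR adjusted p = 5.90e-06).

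The read pairs themselves were compared next, before any scaling to depth. The totals per mouse had a median of 7902932 read pairs in control mice (6797180 to 8960688) and of 6806177 in IDA mice (6682177 to 7833916). The read pairs on the 4 subunit genes varied far less than these totals. *Sdha* had 4250 ± 64.3 read pairs in control hearts and 4176 ± 83.0 in IDA hearts (SD, n = 10 each), and 6 of the 10 IDA mice were below every control. *Sdhb* had 1359 ± 20.8 and 1415 ± 30.8 read pairs, with 8 IDA mice above every control. The coefficients of variation within groups lay between 1.51% and 3.74% for the subunits in read pairs, and between 6.42% and 9.39% in CPM.

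The assembly factors were counted at lower density. *Sdhaf1* had between 257 and 324 read pairs in control hearts with a median of 292.5, and between 278 and 475 in IDA hearts with a median of 384. *Sdhaf2* had between 897 and 1090 read pairs in control hearts with a median of 983, and between 959 and 1249 in IDA hearts with a median of 1114.5. For both, most IDA mice had more read pairs than any control (9 mice for *Sdhaf1* and 8 for *Sdhaf2*) although their libraries were on the whole smaller.

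Per exonic base, the subunit genes were among the most densely counted genes of the heart. Averaged over all mice, *Sdha* had 1.47 read pairs per base, and *Sdhb*, *Sdhc* and *Sdhd* had 1.29, 1.28 and 1.30, which placed the 4 genes between the 99.3 and the 99.7 percentile of tested genes. *Sdhaf1* and *Sdhaf2* had 0.346 and 0.342 read pairs per base. The slope of log2 read pairs on log2 total across the 10 mice of a group, which is 1 where counts scale with depth, was between 0.03 and 0.23 for the subunits in control hearts and between 0.13 and 0.38 in IDA hearts. For *Sdhaf1* the slopes were 0.64 and 0.72 (standard errors 0.26 and 0.80), and for *Sdhaf2* they were 0.63 and 0.68 (standard errors 0.15 and 0.38). Within a run of library numbers (given further on) a diet had 3 to 7 mice, too few for slopes of their own. The median slope over all tested genes was 1.05 in control and 1.22 in IDA hearts.

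The 270 tested genes with 1 or more read pairs per base, which include the 4 subunits, had median slopes of 0.17 and 0.24. Their median log2 fold change was 0.15 (interquartile range 0.11 to 0.20), and 95.9% of them had a positive value. At the other end, the 6593 genes below 0.1 read pairs per base had median slopes of 1.37 and 1.75 and a median log2 fold change of -0.13. The subunits *Sdhb*, *Sdhc* and *Sdhd* thus lay within the interquartile range of the densely counted genes, and *Sdha* lay below it. The 2670 genes with 0.3 to 1 read pairs per base, which include both assembly factors, had median slopes of 0.65 and 0.75. Their median log2 fold change was 0.17 (interquartile range -0.0020 to 0.30), and 74.6% of them had a positive value. *Sdhaf2*, at 0.26, lay within this interquartile range, and *Sdhaf1*, at 0.46, lay above it. PCR duplicates had been removed from these libraries before counting, and the part of this step in the fold changes of the 6 genes was not tested.

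**Figure D2:**
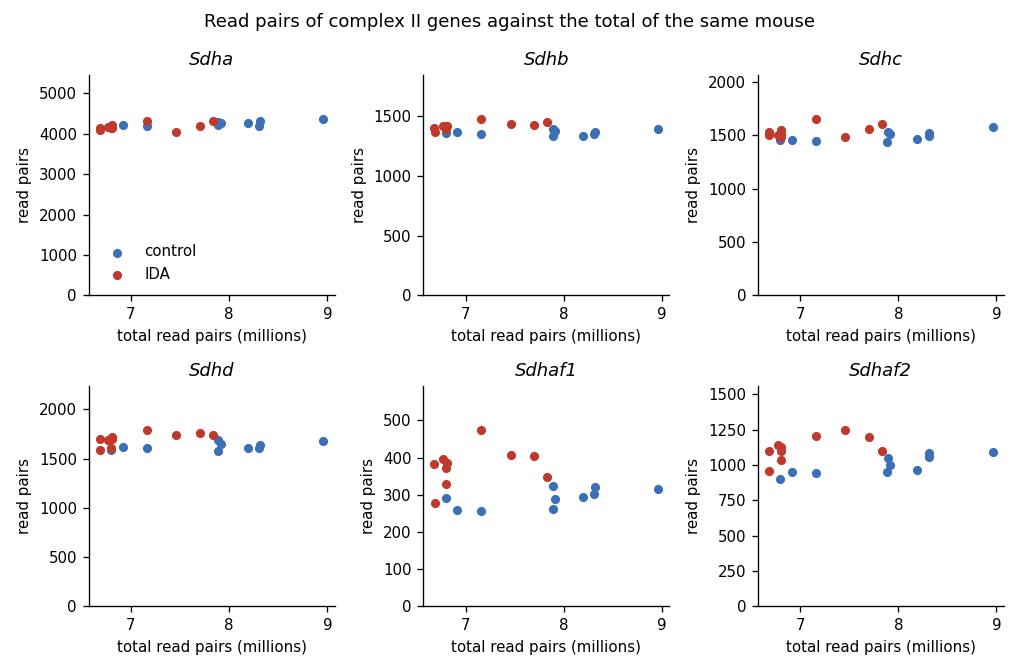
Read pairs of each complex II gene (vertical axes, from 0) against the total read pairs of the same mouse (horizontal axes), for 10 control and 10 IDA mice. The subunits stay nearly level across totals, while 9 IDA mice for *Sdhaf1* and 8 for *Sdhaf2* lie above every control mouse.

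The effect of the scaling on each gene was therefore measured. With log2 library size as a covariate, *Sdhb*, *Sdhc* and *Sdhd* had log2 fold changes of -0.0031, 0.0070 and 0.02, and none passed edgeR's test (adjusted p = 0.919, 0.856 and 0.470). In the same fit *Sdha* was called lower in IDA hearts, with a log2 fold change of -0.08 (standard error 0.03, adjusted p = 0.0129). *Sdhaf1* and *Sdhaf2* were called higher at 0.39 and 0.19 (adjusted p = 0.000211 and 0.000360). In read pairs without any scaling to depth, only the assembly factors were called among the 6 genes.

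The library numbers in the column names of the count table fall into 2 consecutive runs, which no label calls a batch, and the totals differed between diets in the first run more than in the second. In the first run, the 5 controls had a median total of 8192364 and the 7 IDA mice 6800812, and all 6 genes were called higher, *Sdha* included (log2 fold change 0.17, adjusted p = 0.0269). In the second run, the 5 controls had a median total of 7161969 and the 3 IDA mice 7159515. The medians were thus nearly equal, although single totals ranged from 6797180 to 8316427 in these controls and from 6805453 to 7702288 in these IDA mice. Here the 4 subunits had log2 fold changes between -0.07 and 0.06, none of which passed the test. *Sdhaf1* had a log2 fold change of 0.47 in each run (adjusted p = 0.000334 in the first and 0.00600 in the second), and *Sdhaf2* was called in both, at 0.30 and 0.22 (adjusted p = 0.000404 and 0.0175).

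Gene length was also taken into account. After a correction that removes from each mouse any trend on exonic length, *Sdhb* and *Sdhc* were called lower in IDA hearts, both at -0.12 on the log2 scale (adjusted p = 0.0365 and 0.0371). *Sdhd* moved to -0.08 (adjusted p = 0.121) and *Sdha* to 0.10 (adjusted p = 0.160). *Sdhaf1* and *Sdhaf2* were still called higher, at 0.17 (adjusted p = 0.00243) and 0.33 (adjusted p = 4.88e-06). That made 2 genes higher and 2 lower of 6, where 31.5% of all tested genes were called higher and 23.5% lower after the correction.

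**Figure D3:**
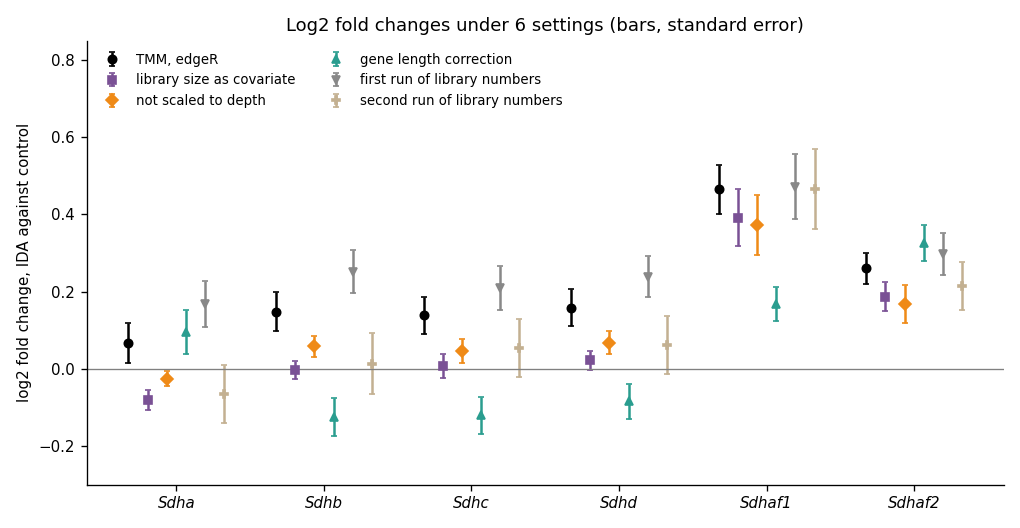
Log2 fold change of IDA against control hearts for the 6 genes under 6 settings; bars are standard errors and the line marks 0. *Sdhaf1* and *Sdhaf2* are above 0 under all 6, whereas *Sdhb*, *Sdhc* and *Sdhd* lie below 0 after the gene length correction.

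To compare levels between genes, read pairs were divided by exonic length and scaled within each library (TPM). In control hearts *Sdha* was highest at 549 ± 33.1 TPM (SD, n = 10), above *Sdhb* in all 10 mice. *Sdhb*, *Sdhd* and *Sdhc* were next at 468 ± 31.9, 467 ± 28.5 and 467 ± 23.7 TPM, and their order was not stable, each neighbour being higher in 5 of 10 mice. The assembly factors were well below the subunits, *Sdhaf2* at 119 ± 3.71 TPM and *Sdhaf1* at 111 ± 5.83 TPM, and *Sdhaf2* was the higher in 9 of 10 controls. In IDA hearts this last order was turned, with *Sdhaf1* at 145 ± 16.2 TPM and *Sdhaf2* at 134 ± 6.28 TPM, and *Sdhaf1* the higher in 8 of 10 mice. This turn rests on values in which *Sdhaf1* rose more than *Sdhaf2*. With any trend on exonic length removed, *Sdhaf1* rose less (0.17 on the log2 scale) than *Sdhaf2* (0.33). Reads over 636 of the 967 bases of *Sdhaf1* may also belong to *E130208F15Rik*. The subunits kept *Sdha* first, at 544 ± 31.1 TPM, above the next gene in all 10 IDA mice. Read pairs of the subunits rose little with the total, and whether their TPM values follow the amounts of mRNA was not tested.

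In ratios between genes of the same mouse the scaling factor cancels, but a ratio is free of depth only if both counts rise alike with the total. In control hearts the slopes on the total were 0.13 for *Sdha* and 0.03 for *Sdhb*, and in IDA hearts 0.13 and 0.23. The part of depth in the ratios was not tested. The ratio of *Sdhb* to *Sdha* in TPM was 0.852 ± 0.012 in control hearts, with a range of 0.831 to 0.869, and 0.903 ± 0.016 in IDA hearts, with a range of 0.877 to 0.939 (SD, n = 10 each). The groups did not overlap. Among the other 269 genes with 1 or more read pairs per base, 26.8% were likewise separated upward in their ratio to *Sdha*, against 1.30% of all 13589 other tested genes. The ratios of *Sdhc* and *Sdhd* to *Sdha* were also higher on average in IDA hearts (0.893 ± 0.020 against 0.850 ± 0.017, and 0.908 ± 0.031 against 0.851 ± 0.012), with overlapping groups. Among the smaller subunits the TPM values were close to equal in both groups, the ratio of *Sdhd* to *Sdhb* being 0.999 ± 0.011 in control and 1.01 ± 0.025 in IDA hearts. Read pairs of these genes rose little with the total, at slopes between 0.03 and 0.38. Whether the ratios match the proportions of mRNA was not tested. After the gene length correction, the difference between *Sdhb* and *Sdha* had the opposite sign.

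**Figure D4:**
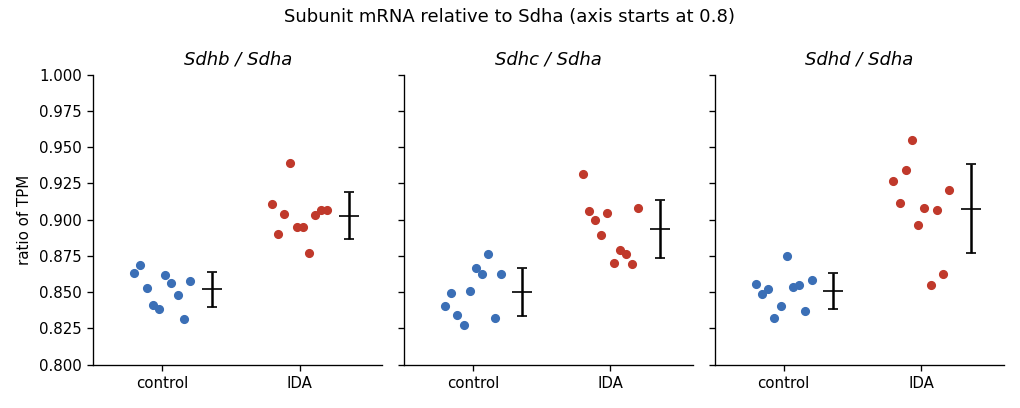
Ratio of the TPM of *Sdhb*, *Sdhc* and *Sdhd* to that of *Sdha* in each mouse, on an axis that starts at 0.8; marks are the mean ± SD of 10 mice. The control ratios of *Sdhb* end at 0.869 and the IDA ratios begin at 0.877, while the groups overlap for *Sdhc* and *Sdhd*.

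The correlations of the genes from mouse to mouse were also described. After subtraction of the diet means, Pearson's r of log2 CPM over 20 mice, which share library and depth, was between 0.95 and 0.98 for every pair of subunits. Between *Sdhaf1* and the subunits it was between 0.23 and 0.38, between *Sdhaf2* and the subunits between 0.58 and 0.75, and between both assembly factors 0.65. Read pairs of the subunits varied by only 1.51% to 3.74% within groups. Division by the same totals thus brings r between such genes close to 1 in advance, so their r values cannot show shared regulation. The genes most like the subunits by this measure were themselves densely counted. For *Sdha* they were *Acadm*, *Acaa2* and *Pln*, of fatty acid oxidation and calcium handling (r = 0.99 each). For *Sdhb* they were *Ndufa10*, *Ndufb9* and *Etfa*, of complex I and electron transfer (r = 0.99 each), and for *Sdhc* they were *Dlst*, *Hibadh* and *Fh1* (r = 0.97 to 0.98). *Sdhd* was closest to *Pgam2*, *Casq2* and *Tuba4a* (r = 0.98 each). *Sdhaf1* was closest to *Pop5*, a subunit of RNase P and RNase MRP, at r = 0.96, then to *Rnpep* and *Sys1*. *Sdhaf2* was closest to *Timmdc1*, a complex I assembly factor, *Edf1* and *D8Ertd738e* (r = 0.90 to 0.91). After the length correction r between *Sdha* and the other subunits was between 0.81 and 0.88 and that among the other subunits between 0.95 and 0.97, and the closest genes were largely others. None of the 3 named genes remained for *Sdha*, *Sdhc*, *Sdhd* or *Sdhaf2*, whereas *Ndufa10* remained for *Sdhb* and *Pop5* for *Sdhaf1*.

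The 250 bases upstream of the annotated start were read from RefSeq (GRCm38.p6) for 5 of the 6 genes. Both strands were searched for ACGTG (or CACGT), a form of the core bound by hypoxia-inducible factors. The form GCGTG (or CACGC) of that core was not searched. Also searched was TGCGCA, which is its own reverse complement. It is the core of the site of NRF-1, a regulator of nuclear genes for mitochondria. Of 32851 windows of the same length, 16.6% held ACGTG (or CACGT) and 6.43% held TGCGCA, and no matches of both overlapped in these genes. The windows of the gene that did not pass the test and of both assembly factors are shown for comparison, with matches in capitals, 5′ to 3′ along the gene.
Sdha, chr13:74350241-74350490, minus strand: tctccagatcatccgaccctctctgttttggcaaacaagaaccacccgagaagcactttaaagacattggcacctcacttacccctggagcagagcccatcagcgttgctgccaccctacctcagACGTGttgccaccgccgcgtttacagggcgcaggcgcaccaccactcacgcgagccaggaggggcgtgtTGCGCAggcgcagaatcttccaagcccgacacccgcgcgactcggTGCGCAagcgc
Sdhaf1, chr7:30322376-30322625, minus strand: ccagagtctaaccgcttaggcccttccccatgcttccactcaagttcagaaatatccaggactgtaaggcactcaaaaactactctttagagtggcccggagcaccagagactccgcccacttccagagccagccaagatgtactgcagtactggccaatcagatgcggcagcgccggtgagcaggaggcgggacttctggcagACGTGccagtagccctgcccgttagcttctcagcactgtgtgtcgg
Sdhaf2, chr19:10525210-10525459, minus strand: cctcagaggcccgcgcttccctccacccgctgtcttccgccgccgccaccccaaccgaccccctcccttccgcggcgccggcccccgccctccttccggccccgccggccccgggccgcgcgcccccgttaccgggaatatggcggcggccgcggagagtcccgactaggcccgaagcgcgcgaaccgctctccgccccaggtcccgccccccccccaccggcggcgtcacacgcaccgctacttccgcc
*Sdha* held ACGTG from 125 to 121 bases before its start and 2 NRF-1 core matches, from 56 to 51 and from 11 to 6 bases before it. *Sdhaf1* held ACGTG from 46 to 42 bases before its start, and *Sdhaf2* held neither of the strings searched. Of the other windows, that of *Sdhd* held 2 NRF-1 core matches and that of *Sdhb* held neither of the strings searched. ACGTG was thus present both in the gene with the largest fold change and in the one that did not pass the test. These matches describe letters in the sequence, and binding was not measured.

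Lists of related genes were described in the same fit, and their counts are to be read against the shares of all tested genes, 35.0% higher and 32.5% lower, or 31.5% and 23.5% after the length correction. Of 5 further factors that act on complex II or are listed with it, 4 rose and 0 fell, and the median log2 fold change was 0.18. All 5 values were positive, beside 52.0% of all tested genes. *1110058L19Rik* (the assembly factor Sdhaf4) rose from 39.1 ± 5.20 CPM to 48.8 ± 4.80 CPM (SD, n = 10 each). *Sirt3*, a mitochondrial deacetylase that acts on SDHA, rose by 0.28 on the log2 scale (edgeR adjusted p = 2.45e-06). *Acn9* (the assembly factor Sdhaf3) rose by 0.18 and *Trap1*, a mitochondrial chaperone that binds complex II, by 0.12 (adjusted p = 0.0315 and 0.0189), and neither call held with library size as a covariate (adjusted p = 0.218 and 0.706). *Lyrm7*, a LYR protein of complex III assembly, did not pass the test (0.08, adjusted p = 0.0874). After the length correction *Sirt3* alone was called higher and *Acn9* was called lower (-0.196, adjusted p = 0.00370).

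The mitochondrial supply of iron–sulfur clusters, on which SDHB depends, had 12 of 14 genes higher and 0 lower (median log2 fold change 0.30). The single negative value was that of *Nfs1*, the cysteine desulfurase, at -0.01 (edgeR adjusted p = 0.779), which was called lower after the length correction (-0.119, adjusted p = 0.0212). The largest value was 0.60 for *Fdx1l*, a ferredoxin that occurs at only 3.38 ± 0.594 CPM in control hearts (edgeR adjusted p = 0.000136), and its value was 0.27 after the length correction and 0.029 when length and GC content were corrected together (adjusted p = 0.0399 and 0.888). These genes are short, with a median exonic length of 1025 bases, and after the length correction 4 were called higher and 3 lower of 14, close to the shares of all tested genes (31.5% and 23.5%). Of the 5 genes for FAD supply, 2 rose, with *Slc52a2*, a riboflavin transporter, at 0.33, and 1 fell, beside 35.0% and 32.5% of all tested genes. The gene that fell was *Slc25a32*, the mitochondrial carrier for folate and flavin, which went from 26.3 ± 4.27 CPM to 15.7 ± 3.26 CPM (log2 fold change -0.74, edgeR adjusted p = 5.17e-06). In late heme synthesis *Ppox* rose by 0.38 and *Cpox* fell by 0.31 on the log2 scale, and the third gene did not pass the test. With length and GC content corrected both calls ended, at 0.092 for *Ppox* (adjusted p = 0.169) and -0.143 for *Cpox* (adjusted p = 0.0875).

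Among the 14 TCA cycle enzymes other than complex II, 6 were called higher and 1 lower (all tested genes, 35.0% and 32.5%), with a median of 0.10, and 13 of the 14 had 1 or more read pairs per base. *Idh3b*, a subunit of isocitrate dehydrogenase, was at 0.16 (edgeR adjusted p = 0.00739). *Suclg2*, a subunit of the succinate-forming enzyme, was the single lower gene at -0.11 (adjusted p = 0.0481), a call that was lost in 13 of 20 fits without 1 mouse (adjusted p up to 0.0920). After the length correction 1 of the 14 was higher and 1 lower, where all tested genes had 31.5% and 23.5%. Of 7 other genes that pass electrons to ubiquinone, 4 rose and 1 fell. *Prodh*, proline dehydrogenase, rose by 0.39 on the log2 scale (edgeR adjusted p = 5.78e-05). *Gpd2*, the mitochondrial glycerol-3-phosphate dehydrogenase, fell from 49.4 ± 5.39 CPM to 27.8 ± 5.15 CPM (log2 fold change -0.83, edgeR adjusted p = 2.63e-07). All IDA mice were below all controls, and the share of all tested genes separated downward is not given here. *Gpd2* has 5931 exonic bases and 0.049 read pairs per base. Its log2 fold change was -0.46 after the length correction and -0.40 with length and GC content corrected (edgeR adjusted p = 1.70e-06 and 3.73e-06). Of 5 carriers and other sources of succinate, 2 rose and 2 fell, beside the same 35.0% and 32.5% of all tested genes. *Slc25a10*, the mitochondrial dicarboxylate carrier that exchanges succinate, rose by 0.46 (adjusted p = 5.47e-07), and *Abat*, of the pathway from GABA to succinate, fell by 0.44 on the log2 scale (adjusted p = 0.0127). The call for *Abat* was lost after the length correction (-0.177, adjusted p = 0.310) and with library size as a covariate (-0.293, adjusted p = 0.144).

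The other complexes of oxidative phosphorylation gave a like picture to the complex II subunits. Of 35 complex I subunits, 33 were called higher, of 9 complex III subunits 8, of 17 complex IV subunits 17 and of 16 complex V genes 13, and every tested gene of the 4 lists had a positive value. Their median log2 fold changes were 0.20, 0.17, 0.20 and 0.19, and that of the 4 complex II subunits was 0.14. In the 4 lists 22, 8, 8 and 9 genes had 1 or more read pairs per base. Of all 270 tested genes counted that densely, 95.9% had a positive value, with a median of 0.15. After the length correction the direction of these lists turned, with 21, 5, 12 and 8 genes called lower and 2, 0, 1 and 0 higher. Complex II subunits, with a median exonic length of 1232 bases, are longer than those of the other complexes, whose medians lay between 546 and 718.5 bases.

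**Figure D5:**
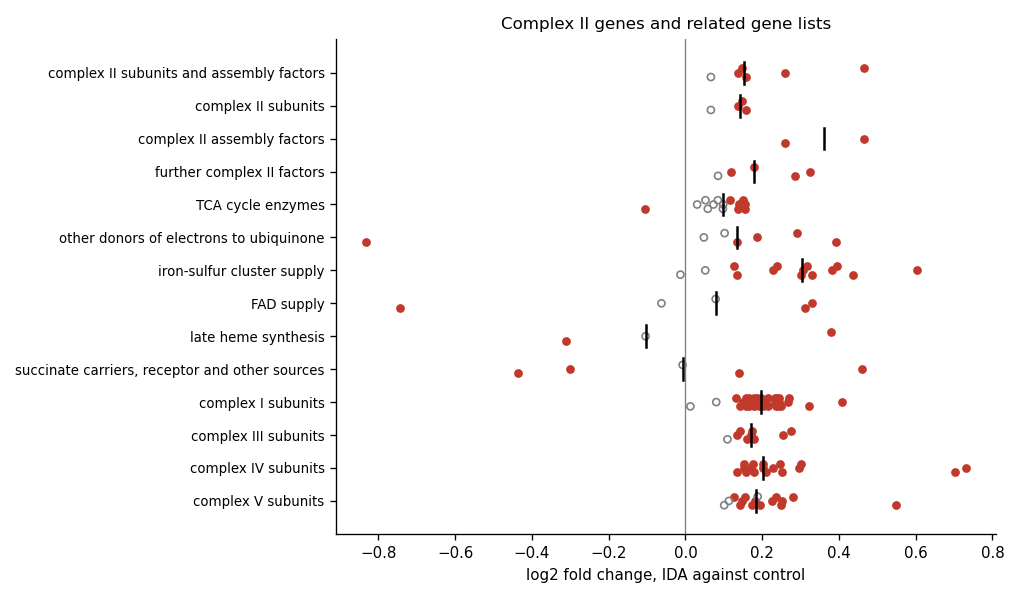
Log2 fold change of IDA against control hearts for each tested gene of the lists; filled points passed edgeR's test at an adjusted p of 0.05, open points did not, and vertical bars are list medians. The 4 complex II subunits lie between 0.07 and 0.16, while *Sdhaf1* lies at 0.46.

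Markers of the cell types of the heart were read beside these results, as sums of CPM on the library totals without TMM scaling. Summed cardiomyocyte markers ranged from 5262 CPM to 6045 CPM in control and from 5103 CPM to 6238 CPM in IDA hearts, with 1 IDA mouse above all controls. Summed erythroid markers ranged from 106 CPM to 166 CPM and from 171 CPM to 619.8 CPM, with all 10 IDA mice above all controls. Of 7 erythroid markers with a row, 4 were tested, 3 of them higher and 1 lower, and *Hba-a1* and *Hba-a2* were listed at 0 in every mouse. With the mean of these markers as a covariate, *Sdhb* and *Sdhc* kept their fold changes (0.17 and 0.15) but did not pass edgeR's test (adjusted p = 0.0940 and 0.108), and *Sdhd*, *Sdhaf1* and *Sdhaf2* did. Summed leukocyte markers were above all controls in 6 IDA mice, atrial and skeletal muscle markers in 5 each, and adipocyte markers in 3, and their part in the results was not tested.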

How the data were processed

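The authors selected poly-A RNA from whole hearts, used STAR for alignment of paired-end reads to mm10, and removed PCR duplicates. Unstranded counting of read pairs over exons, by gene name, used featureCounts 1.4.5-p1. The authors deposited the raw counts, with the exonic length of each of 23420 genes. Mice were assigned to diets by the labels.

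A gene was tested if 10 or more mice reached 1 CPM, which left 13590 genes and excluded 9830. Counts were normalized by TMM and tested with edgeR's quasi-likelihood test (version 4.0.16, R 4.3.3), with diet as the only factor and Benjamini-Hochberg adjustment over all tested genes. Log2 CPM used a prior count of 2. DESeq2 (version 1.42.0), other normalizations and filters, covariates, the replicate number as a block and fits without single mice were the alternatives, as was a gene length correction, for which the deviations of each mouse were fitted on log2 exonic length by loess (span 0.5, degree 1) and the curve was subtracted, whatever the source of the trend. TPM was computed from counts and exonic lengths. The fit was tested on simulated data with 200 changed genes, and 89.7% of log2 changes of size 0.5 and 100% of those of size 1 were recovered. Of the calls, 6.86% were false. The simulated counts rose in proportion to library size, so the simulation does not cover genes such as the subunits, whose read pairs rose little with the total. Totals per mouse, from 6682177 to 8960688 read pairs, set the precision.

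The 6 genes and all lists were chosen with earlier results of these data known. From each list, at most the 2 highest and 2 lowest genes by log2 fold change were named, with all 5 further factors chosen after their values were seen. For each of the 6 genes, the 3 most correlated genes were named. Alternatives on library numbers and on scaling were added after seeing the data. The samples are labelled as numbered mice of each diet, with no word on litters, so p-values measure the spread between these samples. Proteins were not analysed here. Some genes that the naming rule allows are not reported here.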

Additional observations from a re-analysis of the deposited data

How the results depend on the processing

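*Sdhaf1* and *Sdhaf2* were called higher in IDA hearts under all alternatives run. Gene length correction gave 2 genes called higher, 2 called lower and a median log2 fold change of 0.0054 over the 6 genes, with *Sdhb* at -0.124, *Sdhc* at -0.121 and *Sdhd* at -0.084. Correction for length and GC content gave 3 higher and 2 lower, with *Sdha* at 0.167, *Sdhb* at -0.224, *Sdhc* at -0.166 and *Sdhd* at -0.033. With library size as a covariate, 2 were higher, 1 lower and the median 0.014, with *Sdha* at -0.081, *Sdhb* at -0.0031, *Sdhc* at 0.0070 and *Sdhd* at 0.021. The erythroid covariate gave 3 higher, with *Sdhb* at 0.167 and *Sdhc* at 0.151. Without scaling to depth, 2 were higher, with *Sdha* at -0.025, *Sdhb* at 0.058, *Sdhc* at 0.046 and *Sdhd* at 0.068. Scaling on genes below 0.1 read pairs per base gave 6 higher, a median of 0.336, *Sdha* at 0.2495, *Sdhb* at 0.331, *Sdhc* at 0.321 and *Sdhd* at 0.341. The second run of library numbers gave 2 higher, with *Sdha* at -0.065, *Sdhb* at 0.013, *Sdhc* at 0.054 and *Sdhd* at 0.061, and the first run gave *Sdha* at 0.168. The cause of these changes was not tested. The second run holds 5 control and 3 IDA mice.

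With the replicate block, 5 genes were called higher and 0 lower, with *Sdhb* at 0.15 and *Sdhaf1* at 0.46, and no call among the 6 genes changed. The replicate block with length correction gave 2 higher, 0 lower and a median of 0.0050, with *Sdhb* at -0.126, *Sdhc* at -0.124 and *Sdhd* at -0.085. The labels do not say whether equal numbers pair the mice, and the deviations did not settle it. Between mice of equal number, r of the deviations ranged from -0.28 to 0.26 and was over 0.1 in 3 of 10 pairs. Of 10 controls, 3 were closest to the IDA mouse of their own number.

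Leaving out each mouse in turn changed no call among the 6 genes. Log2 fold changes ranged from 0.03 to 0.09 for *Sdha*, 0.11 to 0.17 for *Sdhb*, 0.11 to 0.16 for *Sdhc*, 0.13 to 0.18 for *Sdhd*, 0.42 to 0.49 for *Sdhaf1* and 0.24 to 0.28 for *Sdhaf2*. In 100 fits without 1 mouse of each group, 3 to 5 genes were called higher. *Sdhb* (0.10 to 0.19) lost its call in 6 fits and *Sdhc* (0.10 to 0.18) in 13.

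Of the other genes named, *Acn9* was at -0.196, *1110058L19Rik* at -0.028 and *Idh3b* at -0.046 after length correction, and at -0.196, -0.026 and -0.047 with the replicate block added. With length and GC correction *Acn9* was at -0.0022, *Trap1* at -0.080, *Sirt3* at -0.0013 and *Idh3b* at -0.067. *Suclg2* also lost its call with the replicate block (adjusted p = 0.0709), the library number run as a covariate (0.0739), upper-quartile factors (0.0767) and in the first run (0.571), and was at 0.077 when scaled on genes below 0.1 read pairs per base. *Nfs1*, which did not pass the test, was called lower with length correction (-0.119), library size as a covariate (-0.092) and no scaling to depth (-0.109, adjusted p = 0.0212, 0.0299 and 0.0238). It was at 0.014 with upper-quartile factors, 0.023 in the first run of library numbers, 0.171 when scaled on genes below 0.1 read pairs per base (adjusted p = 0.00554), and between -0.034 and 0.0036 with each mouse left out in turn. *Lyrm7* was at -0.0064 without scaling to depth and at -0.00092 with the replicate block and length correction. *Acn9* lost its call in 9 of 20 fits without 1 mouse and *Trap1* in 1. *Trap1* also lost it with length correction (adjusted p = 0.324), *Cpox* with library size as a covariate (0.0529), and *Abat* with the erythroid covariate (0.204) and in the second run (0.290).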
